A study of Mus musculus with 6 samples.

Results

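miR-221 and miR-222 are microRNAs (miRNAs) cut from a single transcript, and each hairpin gives a 3p and a 5p strand. The 4 mature strands described here, mmu-miR-221-3p, mmu-miR-222-3p, mmu-miR-221-5p and mmu-miR-222-5p, were picked by name from a table of 1626 mouse miRNAs. All 4 passed the filter on low counts, as did 876 miRNAs in all. The table came from small RNA sequencing of C57BL/6J mouse fetal liver. Its design text names HITS-CLIP, a method that reads RNA bound to a protein such as Argonaute, whereas each sample is marked as miRNA-Seq with total RNA as the molecule. The counts are read here as total miRNA. There were 3 wild-type (WT) libraries, numbered 1 to 3, and 3 libraries from embryos with a homozygous miR-144/451 deletion (KO), numbered 4 to 6. No other allele or treatment is labelled, and the labels give neither the embryonic day nor whether replicates were separate embryos or litters. P-values therefore speak only of how far these libraries scatter, part of which may be technical.

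A miRNA guides an Argonaute protein to messenger RNAs through its seed, bases 2 to 8 from its 5′ end. The 3p strands of miR-221 and miR-222 are the guide strands, the ones mostly kept by Argonaute, and their best known target in blood formation is Kit, the receptor of stem cell factor that early erythroid progenitors need to proliferate. The pair is known to fall as erythroid cells mature, and it is also abundant in endothelium and in haematopoietic progenitors. The deleted locus makes miR-144 and miR-451a, erythroid miRNAs that rise during maturation. The comparison of KO with WT asks whether the Kit-repressing pair differs in fetal liver that lacks this locus.

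The sequences are shown because the guide strands share a seed and the passenger strand does not. They were read from RefSeq (GRCm38.p6), which held 3 of the 4 strands; capitals mark the seed.
miR-221-3p: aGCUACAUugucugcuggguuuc
miR-222-3p: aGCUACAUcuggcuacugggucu
miR-221-5p: aCCUGGCAuacaauguagauuucugu
The guide strands began with the same 8 bases and were identical at 11 of 23 positions when laid side by side without gaps. Past the seed they differ, so a read of full length tells them apart. miR-1928 has the same seed in RefSeq and was not analysed here; the seed of miR-221-5p was found in 1 mature miRNA, itself.

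Both hairpins lie on the minus strand of chromosome X in GRCm38, Mir221 at 19146294 to 19146388 and Mir222 at 19146893 to 19146971, with 504 bases between them. On this strand Mir222 comes first in the transcript. The hairpins overlapped 0 other genes of GENCODE M21, so they are intergenic in that annotation. The nearest other gene was Gm14636 (19156981 to 19167241), a non-coding gene on the same strand, 10010 bases away, and 0 other miRNA genes were annotated within 1 Mb.

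The 3′ UTR of Kit (chromosome 5, gene at 75574916 to 75656722, 3′ UTR of 2177 bases in GENCODE M21) holds the full match to this seed followed by an A, ATGTAGCA, at 2 places. They are printed with capitals on the match, which was searched on the sense strand only.
Kit site at chr5:75654980-75655003, plus strand: gatgggagatatATGTAGCAagac
Kit site at chr5:75656511-75656534, plus strand: gtaaatattgaaATGTAGCAataa
Among 4756 genes whose 3′ UTR is at least as long, 5.97% held the match within the first 2177 bases and 0.189% (9 genes, Kit included) held it at 2 or more places. The match describes letters and is no measure of repression, and Kit mRNA was not analysed here.

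Library totals were 16243894 to 27089133 counts. CPM below are counts per 1000000 after TMM scaling, which lines the libraries up on their typical miRNA. The products of the deleted locus summed to 197200 to 273100 CPM in the WT libraries and 189.6 to 213.3 CPM in the KO libraries, as labelled. The locus held a large part of WT reads. Without a scaling factor the median log2 fold of the 873 other tested miRNAs was therefore 0.34, against -0.01 after TMM scaling, and the folds below are relative to the typical miRNA. Outside the locus 0.458% of tested miRNAs (4 of 873) passed an adjusted p under 0.05 (edgeR quasi-likelihood test, Benjamini-Hochberg), against 12 by DESeq2 and 5 by limma-voom. With any of the 6 libraries left out, 0 or 1 passed edgeR.

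No difference between WT and KO fetal liver was detected for the 4 strands: 0 of 4 passed the edgeR test over all miRNAs, against 0.458% of the 873 tested outside the locus, the 4 included. At an unadjusted p under 0.05 the count was also 0, against 96 of 873 (11%, 84 of them higher in KO), and DESeq2 and limma-voom called 0.

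miR-221-3p, the more abundant guide strand, held 1186 CPM in WT library 1, 1294 in WT library 2 and 910.2 in WT library 3, and 1119, 1098 and 1061 CPM in the KO livers (libraries 4 to 6). WT library 3 was the lowest and WT library 2 the highest of the 6, and the KO values lay between them. Mean abundance was 1130 ± 198 CPM for WT and 1093 ± 29.2 for KO (SD, n = 3 per genotype). The log2 fold was -0.05 (SE 0.17, 95% interval -0.45 to 0.35; edgeR adjusted p = 0.983). Without WT library 3 it was -0.25 (edgeR adjusted p = 0.535).

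miR-222-3p, which carries the same seed, held 754, 855.5 and 611.2 CPM in the WT livers (libraries 1 to 3) and 890.8, 803.9 and 764.8 CPM in the KO livers (libraries 4 to 6). The groups overlapped, since WT library 2 exceeded KO libraries 5 and 6, and WT library 3 was again the lowest. Mean abundance was 740.2 ± 122.7 and 819.8 ± 64.5 CPM (SD, n = 3 per genotype). The log2 fold was 0.15 (SE 0.17, 95% interval -0.26 to 0.56; edgeR adjusted p = 0.81). Without WT library 3 the log2 fold was -0.03 and without KO library 4 it was 0.004 (edgeR adjusted p = 0.951 and 0.9999), so its positive sign rested on WT library 3.

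The passenger strands, which are mostly degraded after the guide is loaded, were far less abundant. miR-221-5p held 20.1, 12.9 and 13.3 CPM in the WT livers and 16.8, 17.5 and 12.7 CPM in the KO livers, in library order, with WT library 1 highest and KO library 6 lowest. Its log2 fold was 0.03 (SE 0.26, 95% interval -0.58 to 0.63; edgeR adjusted p = 0.999). miR-222-5p held 8.96, 11.3 and 7.56 CPM in WT and 8.98, 7.95 and 8.09 CPM in KO, where the KO values lay within the WT range. Its log2 fold was -0.16 (SE 0.22, 95% interval -0.67 to 0.36; edgeR adjusted p = 0.838), and -0.34 without WT library 3 (edgeR adjusted p = 0.556). These strands rest on 144 to 367 reads per library.

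**Figure D1:**
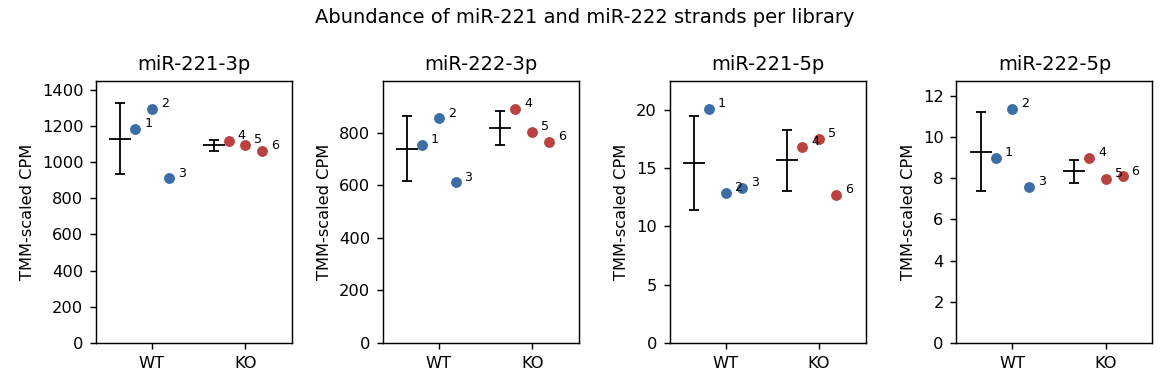
TMM-scaled CPM (linear axes from 0) of the 4 strands in each WT and KO library; numbered points are libraries, and black bars give the mean and SD of 3. WT library 3 is the lowest point for miR-221-3p, at 910.2 CPM, and for miR-222-3p, at 611.2 CPM.

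By mean abundance the order was miR-221-3p, miR-222-3p, miR-221-5p and miR-222-5p, at ranks 91, 113, 421 and 482 of 876 tested miRNAs. Neighbours in this order did not overlap over the 6 libraries: the lowest miR-221-3p value was 910.2 CPM and the highest miR-222-3p value 890.8 CPM. The lowest miR-221-5p value was 12.7 CPM and the highest miR-222-5p value 11.3 CPM. The guide strands are both 23 bases long and miR-221-5p has 26; counts were not corrected for length or for ligation preference, so the order is one of reads. Next to miR-221-3p in abundance stood the hypoxia-induced miR-210-3p and miR-301a-3p above, with log2 folds of 0.95 (SE 0.16) and 0.64 (SE 0.14), and miR-151-5p and miR-300-3p below, with 0.00 (SE 0.15) and -0.01 (SE 0.44). Next to miR-222-3p stood miR-543-3p and miR-335-3p above, with 0.04 (SE 0.49) and 0.26 (SE 0.30), and miR-376a-3p and miR-30e-3p below, with -0.06 (SE 0.53) and 0.11 (SE 0.20). None of these 8 passed the edgeR test (adjusted p 0.061 to 0.999).

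As a share of all miRNA counts, without a scaling factor, the 4 strands together took 0.174%, 0.194% and 0.135% in the WT libraries and 0.248%, 0.212% and 0.2005% in the KO libraries. Each KO share exceeded each WT share. The means were 0.167% ± 0.0300 and 0.220% ± 0.0251 (SD, n = 3 each; exact two-sided permutation p = 0.1, below which this design cannot go). The Wilson 95% interval was 0.133 to 0.136 in WT library 3 and 0.246 to 0.251 in KO library 4. Such intervals take reads as independent, cover counting error only and leave out the scatter between libraries. Of counts outside the deleted locus the strands took 0.211% ± 0.0365 in WT and 0.220% ± 0.0251 in KO (SD, n = 3 each; exact two-sided permutation p = 0.8), and the groups overlapped. Of the single strands, only miR-222-3p had KO shares of all counts entirely above WT, at 0.0534% to 0.0762% in WT and 0.0830% to 0.109% in KO. This held for 31.3% of the 873 tested miRNAs outside the locus. Libraries are of bulk RNA from fetal liver, so changes in the share of cells making a miRNA and in its amount per cell cannot be told apart.

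The balance between the guide strands needs no scaling, since both are counted in the same library. Of reads for both 3p strands, miR-222-3p made up 38.9%, 39.8% and 40.2% in WT libraries 1 to 3 and 44.3%, 42.3% and 41.9% in KO libraries 4 to 6. Every KO library was above every WT library. The Wilson 95% intervals ran from 39.6 to 40.7 in the highest WT library and from 41.4 to 42.3 in the lowest KO library. Guide reads numbered 30390 to 51895 per library. Within a genotype such intervals stayed apart too, since they leave out the scatter between libraries. WT library 1 had 38.37 to 39.38, below WT library 3, and KO library 4 had 43.84 to 44.81, above KO library 5 (41.75 to 42.79). The means were 39.6% ± 0.669 and 42.8% ± 1.31 (SD, n = 3 each). The log2 ratio of miR-222-3p to miR-221-3p was -0.61 ± 0.04 in WT and -0.42 ± 0.08 in KO (SD, n = 3 each), a difference of 0.19 (exact two-sided permutation p = 0.1, its lower limit here). With each library left out in turn the difference was 0.15 to 0.22.

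A ratio between neighbours was then fitted with limma for 75 pairs of neighbouring hairpins outside the deleted locus. It was chosen after the ratio of the guide strands was seen. Each hairpin was represented by its most abundant strand among those whose name belongs to 1 hairpin only. Some pairs therefore set a guide strand against a passenger strand, such as miR-15b-5p over miR-16-2-3p. For miR-222-3p over miR-221-3p the log2 difference was 0.19 (SE 0.06, 95% interval 0.03 to 0.35), with an unadjusted p of 0.0266 and a limma adjusted p of 0.221, so it did not pass. One of the pairs, 1.33%, passed, and 10 had an unadjusted p under 0.05. The libraries of WT and KO did not overlap for 13.3% of the pairs, this one included. By absolute size of the difference it ranked 30 of 75. The pairs are not all independent and not all between guide strands, which limits this rank and the percentages. For miR-300-3p over miR-381-3p the log2 ratio was 0.003 to 0.006 in every library. For miR-27b-3p over miR-24-1-5p and miR-27a-3p over miR-24-2-5p the difference was the same, 0.142.

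The 5p strand made up a small part of the reads of each hairpin. For miR-222 it took 1.18%, 1.31% and 1.22% in WT libraries 1 to 3 and 0.998%, 0.980% and 1.05% in KO libraries 4 to 6, with every KO library below every WT library. The log2 ratio of 5p to 3p differed by -0.30 (SE 0.19, 95% interval -0.71 to 0.11; limma adjusted p = 0.848). The Wilson 95% interval of WT library 2, 1.164 to 1.473, lay above those of KO library 4 (0.862 to 1.154) and KO library 5 (0.8328 to 1.152). In all other pairs of a WT and a KO library the intervals overlapped. KO libraries lay wholly below WT for 7.22% of the 263 hairpins with both arms counted. For miR-221 the 5p strand took 1.66%, 0.986% and 1.44% in WT and 1.48%, 1.57% and 1.18% in KO, and the groups overlapped. Its log2 ratio differed by 0.07 (SE 0.23, 95% interval -0.43 to 0.58; limma adjusted p = 0.96). Over all hairpins limma called 0%, with 15 of 263 at an unadjusted p under 0.05.

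**Figure D2:**
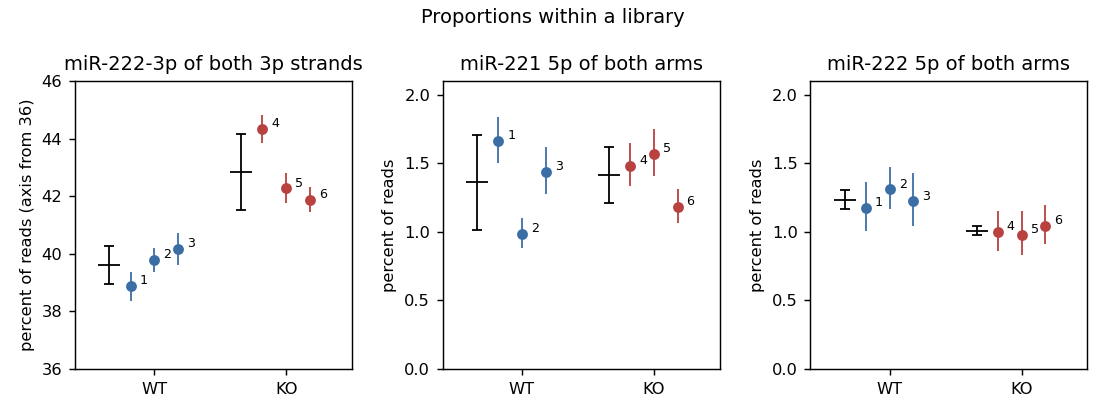
Percent of reads per library: miR-222-3p among both 3p strands (left, axis from 36), and the 5p strand among both arms of miR-221 (middle) and miR-222 (right); numbered points are libraries with Wilson 95% intervals, and black bars give the mean and SD of 3. In the left panel KO libraries lie at 41.9% to 44.3% and WT libraries at 38.9% to 40.2%.

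The guide strands moved together between libraries of a genotype. Over the 6 libraries Pearson's r of log2(CPM + 0.5) between miR-221-3p and miR-222-3p was 0.79 (Spearman's rho 0.54), and 0.95 after each genotype's mean was taken out. The r of 0.79 rested on WT libraries 2 and 3: without them, and with genotype means left in, it was -0.11. The r of 0.95 was not computed without them. It also draws mostly on the WT libraries, where miR-221-3p had an SD of 198 CPM against 29.2 in KO. Among the KO libraries both strands were highest in library 4 and lowest in library 6. For miR-222-5p and its guide miR-222-3p r was 0.63, and 0.96 within genotype. For miR-221-5p and miR-221-3p r was 0.24 and 0.25. Over the 6 libraries miR-222-5p lay closer to the other guide, miR-221-3p, with r of 0.88 (0.91 within genotype). Its r with miR-3963, which comes from neither hairpin, was 0.96 (0.97 within genotype). Without WT libraries 2 and 3 the r of miR-221-5p and miR-221-3p was 0.90, and without WT library 3 and KO library 4 that of the miR-222 strands was 0.71. These are descriptions over 6 libraries that share depth and scaling.

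The 5 miRNAs most like miR-221-3p, among 461 with a mean of at least 10 CPM, were miR-872-3p (r 0.98), miR-92a-1-5p (0.97), miR-296-3p (0.97), miR-3963 (0.96) and miR-425-3p (0.95). Spearman's rho was 0.886 to 1 for them, and r was 0.84 to 0.98 without WT libraries 2 and 3. The miRNAs most like miR-222-3p were miR-6936-3p (r 0.97), miR-1306-3p (0.92), miR-3066-5p (0.92), miR-93-5p (0.87) and miR-1191a (0.86). Their rho was 0.31 to 0.94, and without WT library 3 and KO library 4 r was 0.31 to 0.88, so most of these likenesses rested on that pair of libraries. For miR-221-3p, 27 of the 461 miRNAs had an r at least as high as its partner miR-222-3p.

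**Figure D3:**
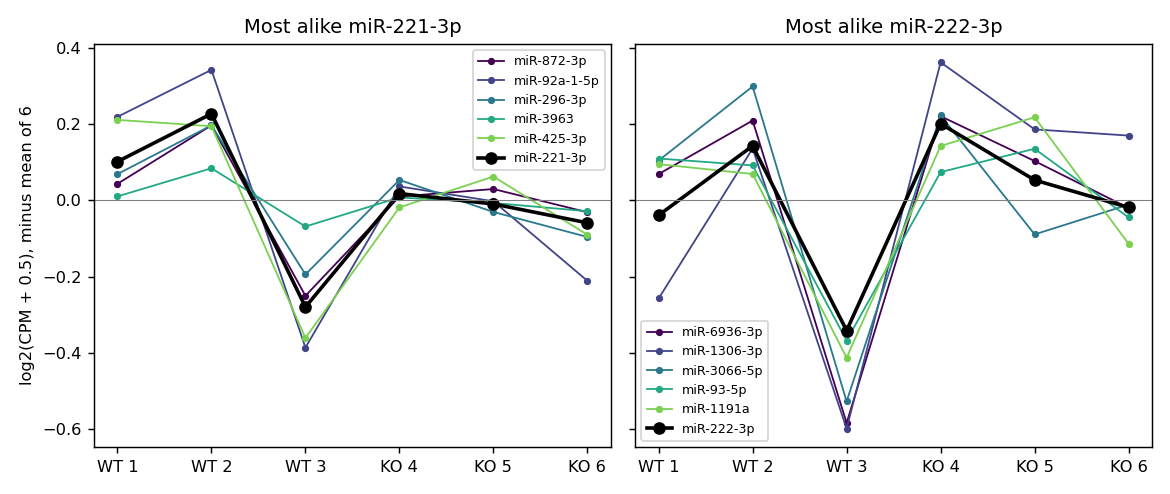
Log2(CPM + 0.5) minus the mean over 6 libraries, for miR-221-3p (left) and miR-222-3p (right) in black and the 5 miRNAs with the highest Pearson r to each in colour; lines only join the libraries of a miRNA. WT library 3 is the lowest black point in both panels, at 910.2 and 611.2 CPM before the log.

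WT library 3, lowest in both guide strands, was also the library with the most hepatocyte miRNA. The 4 hepatocyte markers (miR-122-5p, miR-192-5p, miR-194-5p and miR-802-5p, 0 of them at 0 counts) summed to 131600 CPM in it, against 33940 and 56130 CPM in the other WT libraries and 42260 to 102300 CPM in KO. The endothelial markers miR-126a-3p and miR-126a-5p summed to 10520 CPM in WT library 3 and 11050 CPM in KO library 6, against 7323 to 7870 CPM elsewhere. Mesenchymal markers (5, among them miR-143-3p, miR-145a-5p and miR-214-3p) summed to 2286 to 3157 CPM in WT and 2052 to 2979 CPM in KO. Pan-blood miR-142a-3p and miR-142a-5p summed to 28590 to 34110 CPM in WT and 25850 to 38760 CPM in KO. Myeloid miR-223-3p and miR-223-5p summed to 15700 to 20740 CPM in WT and 8883 to 16310 CPM in KO. No marker of these lists was at 0 or passed the edgeR test. The part of these cell types in the level of miR-221 and miR-222 was not tested.

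Other miRNAs reported to repress Kit were counted beside the pair. Of 6, 5 could be tested and 0 passed (edgeR; 0 also at an unadjusted p under 0.05, by DESeq2 and by limma-voom), with 4 below 0 and a median fold of -0.21 on the log2 scale. Over all 873 tested miRNAs outside the locus, 457 were below 0, 96 had an unadjusted p under 0.05 and the median was -0.01. miR-193b-3p held 56.0, 40.8 and 21.5 CPM in WT libraries and 77.2, 57.1 and 41.3 CPM in KO libraries, a log2 fold of 0.57 (SE 0.39). miR-193a-3p, from another locus, stood at -0.40 (SE 0.41), miR-218-5p at -0.42 (SE 0.47), miR-494-3p at -0.13 (SE 0.50) and miR-34a-5p, a p53 target, at -0.21 (SE 0.25). miR-137-3p had 5 to 40 counts per library and did not pass the filter on low counts. Each guide strand of the pair was more abundant in every library than any of these miRNAs. The most abundant of them in WT, miR-494-3p, averaged 97.3 ± 60.3 CPM (SD, n = 3).

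Among 10 miRNAs described to fall during erythroid maturation, as the pair does, 8 were below 0 and 0 passed (edgeR; 2 at an unadjusted p under 0.05; 0 by DESeq2 and limma-voom), and the median was -0.32. Of those 2, 1 was higher in KO; over all 873 tested miRNAs 457 were below 0, and 96 had such a p, 84 of them higher. miR-223-3p, a myeloid miRNA and the most abundant of them, held 16050, 20380 and 15320 CPM in WT and 8637, 16010 and 10590 CPM in KO, which gave -0.55 (log2, SE 0.24; edgeR adjusted p = 0.459). miR-150-5p, which is high in lymphocytes, was lowest at -0.65 (SE 0.35), and miR-103-3p highest at 0.46 (SE 0.10). The CPM of miR-103-3p were nearly those of miR-107-3p in every library, such as 5312 and 5316 in WT library 1. Whether these miRNAs share reads was not tested. Among 10 miRNAs high in maturing erythroid cells, with the deleted locus left out, 7 were below 0 and 0 passed (edgeR; 2 at an unadjusted p under 0.05; 1 by DESeq2, 0 by limma-voom), with a median of -0.21; both at an unadjusted p under 0.05 were higher, as were 84 of the 96 over all miRNAs. In that list miR-210-3p stood highest at 0.95 (SE 0.16), miR-183-5p lowest at -0.77 (SE 0.45) and the most abundant, miR-16-5p, at -0.03 (SE 0.14). Without a scaling factor the medians of the Kit, falling and erythroid lists were 0.16, 0.04 and 0.15, and miR-221-3p and miR-222-3p stood at 0.31 and 0.51. The median of all 873 tested miRNAs outside the locus was then 0.34.

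**Figure D4:**
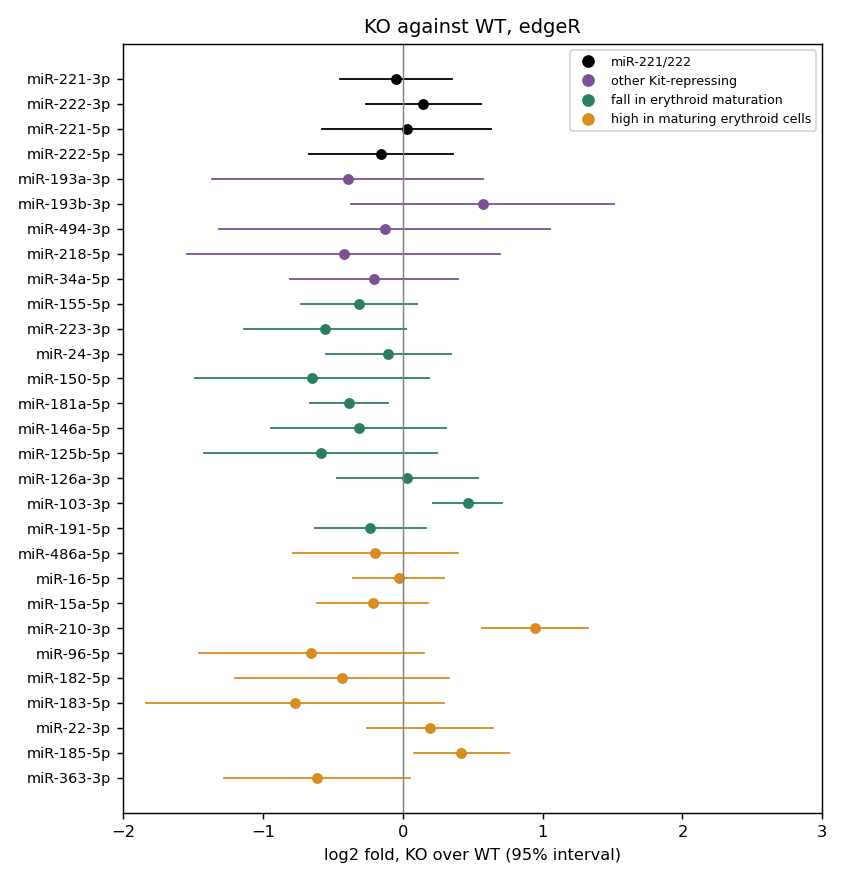
Log2 fold of KO over WT (edgeR, TMM scaling) with its 95% interval for the 4 strands (black), other Kit-repressing miRNAs (purple), miRNAs that fall in erythroid maturation (green) and miRNAs high in maturing erythroid cells (orange). The 4 black points lie between -0.16 and 0.15, and all their intervals include 0.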

How the data were processed

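Per the labels' protocols, total RNA of fetal liver cells was taken with the Qiagen miRNeasy Mini kit, made into NEXTflex small RNA libraries and read on a HiSeq2000. The authors deposited 1 table with a raw read count per mature miRNA and library, and a percent column that equals each count's share of its library total to within 5.0e-09. Cutadapt is named in the submitters' processing notes; aligner, build and how reads with several matches were handled are not given in the sources used here. Against each member, the miRNA closest in counts still differed by 15.7% or more in some library. No other row thus duplicates a member's counts, but whether some reads were shared with other rows was not tested.

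Counts were fitted over the whole table in R 4.3.3 with edgeR 4.0.16 (quasi-likelihood test, TMM, filterByExpr, which left out 750 miRNAs). Standard errors are the absolute log2 fold over the square root of F, and intervals use the fit's degrees of freedom. Alternatives included DESeq2 1.42.0 and voom in limma 3.58.1. Arm ratios, log2((5p + 1)/(3p + 1)), used limma's trend method where each arm averaged 10 counts or more. Neighbouring hairpins lay on 1 strand at most 10000 bases apart, with at least 100 mean counts. Single values used an exact permutation test over 20 assignments. The edgeR and arm-ratio fits were tried on simulated counts, with changes larger than these strands showed. How well smaller changes are found was not tested, and the neighbouring-pair fit and the permutation test were not simulated.

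The members and lists were chosen with earlier results of these data known. Named miRNAs were the members, seed partners, other Kit-repressing miRNAs, the highest, lowest and most abundant of each other list (for cell type lists given as sums, with members named), the 5 most alike each guide strand, and neighbours in abundance or position. miR-107-3p was named for its CPM near those of miR-103-3p.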

Additional observations from a re-analysis of the deposited data

How the results depend on the processing

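The 4 strands passed no test under any of the 13 alternatives each (adjusted p 0.158 to 0.9999). Their folds lay close enough to 0 to change sign. miR-221-3p stood at 0.055 with upper-quartile scaling and 0.31 without a scaling factor, where miR-222-3p stood at 0.51, miR-221-5p at 0.39 and miR-222-5p at 0.21. The median of all tested miRNAs outside the locus was 0.34 without a scaling factor. miR-221-5p stood at -0.039 with RLE scaling, -0.044 with the locus removed before scaling and -0.031 by DESeq2. With each library left out in turn miR-221-5p lay between -0.15 and 0.26 and miR-222-3p between -0.034 and 0.203, miR-221-3p between -0.247 and -0.006 and miR-222-5p between -0.344 and -0.048; the miR-221 arm ratio lay between -0.14 and 0.24. The ratio of the guide strands and the miR-222 arm ratio kept their direction under all alternatives run. The summed share of all counts differed by 0.053 percentage points and by 0.0093 outside the locus. The number of miRNAs called outside the locus was 1 with RLE scaling, 1 with upper-quartile scaling, 1 with the locus removed before scaling, 58 without a scaling factor, 12 by DESeq2, and 0 to 1 with a library left out. Without a scaling factor the list medians were 0.16 (Kit), 0.04 (falling), 0.15 (erythroid), 0.47 (endothelial), 0.13 (mesenchymal), 0.165 (hepatocyte), -0.05 (myeloid) and 0.39 (pan-blood), beside that median of 0.34 over all tested miRNAs. With a library left out the Kit median lay between -0.46 (without KO library 6) and 0.092 (without WT library 3), and the erythroid median between -0.439 and -0.093. The hepatocyte median, -0.18, ranged most, from -0.543 (without KO library 6) to 0.442 (without WT library 3). The cause of these changes was not tested. No paired analysis was made, since the labels do not say whether any WT and KO libraries were matched by litter or otherwise. The low read numbers of the 5p strands (144 to 367 per library) limit their ratios.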
